A study of Homo sapiens with 16 samples.

Results

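Potassium channel genes encode the pore-forming and accessory subunits of channels that let potassium leave cells. They were taken as the protein-coding genes whose symbols start with KCN, with KCNA7 left out, which gave 95 of the 19974 protein-coding genes in the RefSeq annotation of GRCh38. The rule used symbols and no measured value. By symbol, 39 encode voltage-gated pore subunits, 16 inward rectifiers (KCNJ), 15 tandem-pore-domain channels (KCNK) and 17 accessory subunits or regulators. The other 8 (KCNMA1, KCNN, KCNT and KCNU symbols) form a class termed calcium- or sodium-activated pore subunits. KCNU1 was placed in it by symbol and not by its gating. In a secretory epithelium, potassium channels set the membrane potential and so the driving force for chloride and bicarbonate secretion. Calcium-activated channels open when a stimulus raises calcium, while inward rectifiers and tandem-pore-domain channels carry potassium at rest. In bile ducts this secretion adds bicarbonate-rich fluid to bile.

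The cells were H69, human cholangiocytes (bile duct epithelium) immortalised by viral transformation, labelled as passages 30 to 32, with 1 SMAD3 library of the TGF-beta group labelled up to passage 33. All groups shared this line, so 1 cell line stands for the bile duct, and its viral transformation is common to controls and treated cells. Cells received vehicle or recombinant human TGF-beta, a cytokine of fibrosis that signals through SMAD3, at 10 ng/ml for 16 h. SMAD3 itself and 2 histone marks of active chromatin, H3K27ac and H3K9ac, were profiled by chromatin immunoprecipitation and sequencing, with 2 vehicle and 2 TGF-beta libraries per target, numbered 4 and 5 for SMAD3 and 1 and 2 for the marks. The comparison asked where SMAD3 and the marks changed after TGF-beta, and expression was not measured here. The value of a gene was its peak length, the number of bases inside the authors' peaks in the gene span with 10 kb on each side (its window). Pairs of values below are in the order of the replicate numbers.

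Peak files held 22451 to 34413 peaks for SMAD3, 82259 to 92714 for H3K27ac and 54682 to 61297 for H3K9ac. SMAD3 peaks covered 11.2 and 14.5 Mb with vehicle and 19.6 and 19.6 Mb with TGF-beta, and each library was therefore centred on its median gene, which removed a general TGF-beta shift of 0.32 (log2) in SMAD3, 0.09 in H3K27ac and -0.09 in H3K9ac. All changes below are relative to that median. All 6 cholangiocyte marker genes held H3K27ac and H3K9ac peaks in both vehicle libraries, while of 4 hepatocyte genes ALB and TTR held none of any target and the other 2 held H3K27ac in both. Summed H3K27ac peak length over the cholangiocyte markers was 60.7 to 65.8 kb with vehicle and 51.8 to 53.4 kb with TGF-beta, and over mesenchymal or endothelial markers, among which DCN had none, 29.1 to 29.2 kb and 34.6 to 35.8 kb. The same sum was 0.371 to 1.18 kb and 2.36 kb over the hepatocyte genes, 8.35 to 9.02 kb and 5.78 to 5.80 kb over 4 leukocyte genes, all with H3K27ac with vehicle, and 24.96 to 26.2 kb and 25.6 to 26.1 kb over 4 neuronal genes, of which RBFOX3 had none. Their part in the results below was not tested. Whether replicates came from separate cultures is not in the labels, and limma's p-values therefore measure the spread between these libraries only. More cells carrying a peak and more signal per cell cannot be told apart.

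Before treatment, acetylation was held by a part of the family. H3K27ac peaks were present with vehicle in 44 of the 95 windows and H3K9ac peaks in 53, and 33 and 32 windows had a mean of at least 1 kb. SMAD3 peaks were present with vehicle in 34 windows, and 9 reached 1 kb. No peak of any target or treatment was called at 31 members, among them KCNN2, KCNH7, KCNJ1, KCNJ8 and all of KCNA1 to KCNA6. KCNJ6, a subunit of G-protein-gated inward rectifiers, had the longest H3K27ac coverage with vehicle, 19.2 and 21.6 kb in the 2 libraries. It was followed by the inward rectifier KCNJ15 (13.8 and 14.1 kb), the pH-gated KCNK5 (11.5 and 11.4 kb), KCNQ1, which pairs with KCNE subunits in secretory epithelia (10.7 and 10.997 kb), and KCNG2, a silent subunit that modifies other voltage-gated channels (10.1 and 11.4 kb). The KCNQ1 and KCNG2 libraries overlapped, so these neighbours in the order cannot be ranked. The longest H3K9ac coverage was at KCNQ1 (9.71 and 8.52 kb) and at KCNK4, a mechanically gated channel (9.50 and 8.54 kb), which overlapped, then at KCNN1, KCNG2 and KCNK5. SMAD3 coverage with vehicle was longest at KCNK4 (3.07 and 3.41 kb), then at KCNAB3, KCNQ1, KCNK6 and KCNN1, whose means were 1.59 to 2.36 kb. The KCNAB3 and KCNQ1 libraries overlapped, as did those of KCNK6 and KCNN1, so neither pair can be ranked. Long genes hold more bases that can be covered: KCNQ1 had 2.56% of its window in H3K27ac peaks, against 22.6% at KCNK4, 21.4% at KCNN4 and 18.9% at KCNK5. The window of KCNK4 also holds BAD, GPR137, CATSPERZ and ESRRA, so its peaks cannot be assigned to KCNK4 alone. Other genes also lay in the windows of KCNAB3 (CHD3, RNF227, TRAPPC1 and CNTROB), KCNK6 (YIF1B and CATSPERG) and KCNN1 (CCDC124 and ARRDC2). The same was true of KCNQ1 (TRPM5) and KCNG2 (SLC66A2). Another protein-coding gene lay in the window of 44 members and none in that of the other 51.

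**Figure D1:**
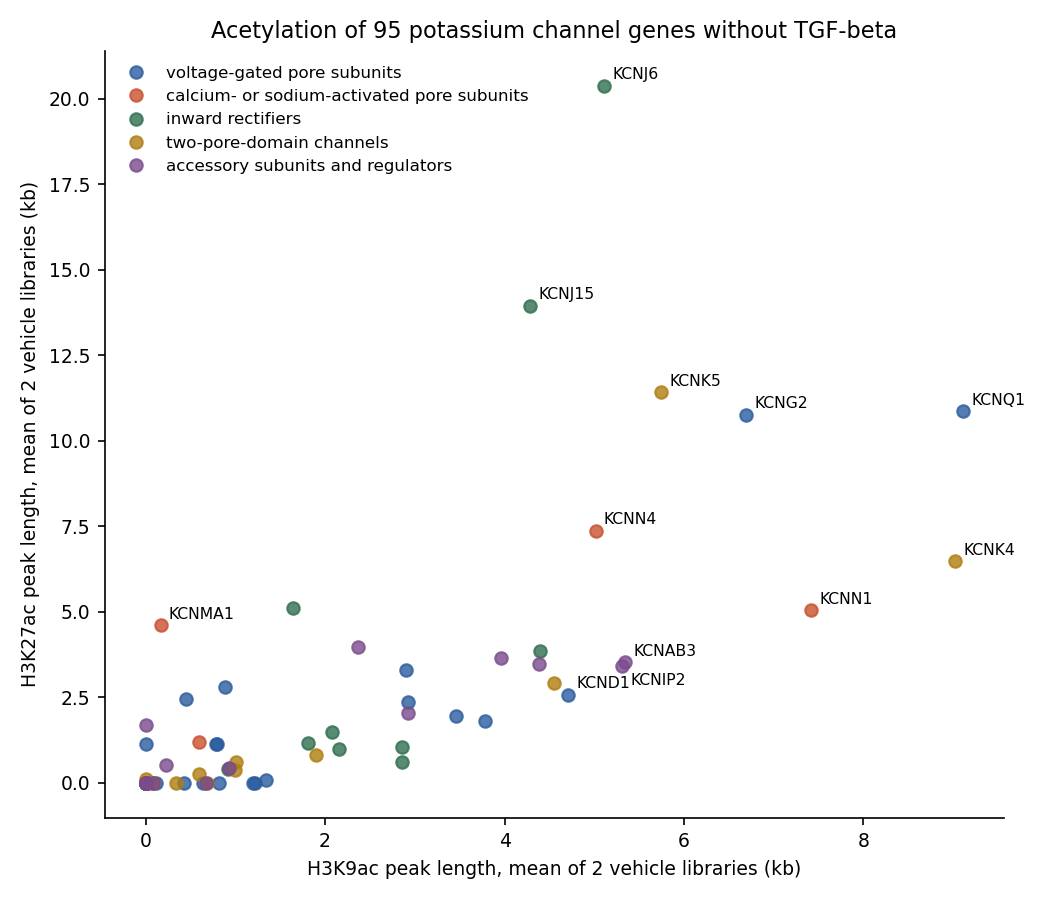
Mean peak length with vehicle (2 libraries per mark) in the window of each of the 95 potassium channel genes, with H3K9ac on the x axis and H3K27ac on the y axis, both in kb; colours mark the classes. Many genes lie at or near 0 on both axes, KCNJ6, KCNJ15, KCNK5, KCNQ1 and KCNG2 have over 10 kb of H3K27ac, and KCNMA1 has H3K27ac but almost no H3K9ac.

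Start sites were less often covered than the windows. RefSeq's promoter table (GRCh38.p14) gave a start site for 71 of the 95 members. With vehicle, both libraries had a peak within 500 bp of 8 of them for SMAD3 (11.3%), 10 for H3K27ac (14.1%) and 18 for H3K9ac (25.4%), beside 58.5%, 60.6% and 66.3% of the 15812 protein-coding start sites in the table. KCNAB2, KCNG2, KCNJ2, KCNK1, KCNK5 and KCNK6 had all 3 targets at the start site in all libraries. A peak in both TGF-beta libraries and neither vehicle library was found at KCNMA1 and KCNT2 (a sodium-activated channel) for H3K9ac, at KCNJ10 for H3K27ac and at KCNK7 for SMAD3, and the reverse at no member. Of all start sites, 0.228% gained H3K9ac in this way, 0.683% H3K27ac and 1.41% SMAD3. The reverse was found at 0.49%, 0.34% and 0.12% of all start sites, so finding it at no member is near these shares.

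The 250 bases before the start site are printed for the member that gained H3K9ac there with the largest changes in its window (KCNMA1), for the member whose start site a gained SMAD3 region covered (KCNIP3), and for KCNK5, whose start site kept its peaks while its window lost acetylation. They run 5′ to 3′ on the gene's strand, from RefSeq (GRCh38.p14), and capitals mark GGCGC or its reverse complement, the 5GC motif described for SMAD proteins, with overlapping matches counted separately. KCNMA1 is at chr10:77637809-77638058 on the minus strand, KCNIP3 at chr2:95346408-95346657 on the plus strand and KCNK5 at chr6:39229476-39229725 on the minus strand.
KCNMA1: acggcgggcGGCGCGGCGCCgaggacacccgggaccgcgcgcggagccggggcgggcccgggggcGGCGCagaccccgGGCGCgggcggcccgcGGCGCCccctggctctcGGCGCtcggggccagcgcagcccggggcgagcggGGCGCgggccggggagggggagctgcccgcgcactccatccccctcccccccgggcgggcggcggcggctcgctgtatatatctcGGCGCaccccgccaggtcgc
KCNIP3: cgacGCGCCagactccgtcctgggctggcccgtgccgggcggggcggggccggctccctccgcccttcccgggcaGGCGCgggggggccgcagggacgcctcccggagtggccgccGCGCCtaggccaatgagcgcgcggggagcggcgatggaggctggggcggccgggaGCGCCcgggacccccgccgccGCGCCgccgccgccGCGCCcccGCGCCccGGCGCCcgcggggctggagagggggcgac
KCNK5: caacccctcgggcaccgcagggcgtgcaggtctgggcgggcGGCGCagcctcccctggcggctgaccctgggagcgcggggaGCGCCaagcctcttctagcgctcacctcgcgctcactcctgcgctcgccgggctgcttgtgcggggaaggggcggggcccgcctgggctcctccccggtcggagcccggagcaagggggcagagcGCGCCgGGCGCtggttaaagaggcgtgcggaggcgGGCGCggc
The stretches held 10, 9 and 5 matches and had a GC content of 85.6%, 86.0% and 77.2%. At KCNMA1, H3K9ac peaks covered all 250 bases in both TGF-beta libraries and 0 in both vehicle libraries. At KCNIP3, H3K9ac covered all 250 bases in all 4 libraries, and SMAD3 covered 0 and 3 bases with vehicle and 0 and 104 with TGF-beta. At KCNK5, SMAD3 covered 63 and 98 bases with vehicle and 94 and 92 with TGF-beta. A GGCGC match on either strand was present in 40 of 71 members (56.3%) and in 57.5% of all 15812 stretches of this length, the palindrome GTCTAGAC in 0 members and 0.209%, and the AP-1 motif TGANTCA in 4 members (KCNA3, KCNJ4, KCNJ15 and KCNJ16; 5.63%) and 5.05%. A match describes letters and is no evidence of binding.

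TGF-beta moved SMAD3 and acetylation at a minority of the family, in both directions. limma was fitted over all genes with a mean peak length of at least 500 bp, and an adjusted p (Benjamini-Hochberg) under 0.05 was called; 47 members were tested for at least 1 target and 48 for none. For SMAD3, 23 members were tested, of which 5 rose (KCNJ15, KCNIP3, KCNJ14, KCNK6, KCNN1), beside 11.2% of all genes tested, and 4 fell (KCNG2, KCNK5, KCNJ4, KCNAB2), beside 1.68%. For H3K27ac, 35 were tested, of which 5 rose (KCNMA1, KCNIP1, KCNJ15, KCNH5, KCNN1), beside 14.8%, and 10 fell (among them KCNK5, KCNIP3, KCNJ16, KCNJ9, KCNAB2, KCNJ5, KCNJ2 and KCNK4), beside 11.7%. For H3K9ac, 44 were tested, of which 2 rose (KCNMA1, KCNJ15), beside 4.25%, and 6 fell (among them KCNK5, KCNJ4, KCNIP3 and KCNG4), beside 5.22%. KCNJ15 rose and KCNK5 fell for all 3 targets, and KCNIP3 rose for SMAD3 and fell for both marks. Of the 20 members called, 11 were called for 1 target, 6 for 2 and 3 for 3.

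The members' shares were 21.7% and 17.4% for SMAD3, 14.3% and 28.6% for H3K27ac and 4.55% and 13.6% for H3K9ac, higher and lower, and with so few genes they are given as a description. The median log2 change over the tested members was -0.14, -0.12 and -0.07 for the 3 targets, against -0.03, -0.03 and 0.00 over all genes tested. Members not called had log2 changes of -0.43 to 0.75 for SMAD3, -0.37 to 0.23 for H3K27ac and -0.28 to 0.48 for H3K9ac. The share of all genes called was counted for the main fits only, so the counts in the other fits that follow are a description. Without centring, 6 members were higher and 0 lower for SMAD3, 5 and 7 for H3K27ac and 2 and 5 for H3K9ac. The 4 SMAD3 decreases then kept their sign, with log2 changes of -0.39 for KCNG2, -0.34 for KCNK5, -0.34 for KCNJ4 and -0.20 for KCNAB2, and did not pass the threshold. Leaving out SMAD3 vehicle replicate 4, vehicle replicate 5, TGF-beta replicate 4 or TGF-beta replicate 5 gave 1, 3, 3 and 4 members higher and 2, 2, 2 and 3 lower, and KCNJ15 and KCNK5 were called in all 4 of these fits. The TGF-beta replicate 2 libraries of both marks came from another sequencing lane than the other libraries of the marks, and without them 5 members were higher and 8 lower for H3K27ac, and 2 and 7 for H3K9ac.

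**Figure D2:**
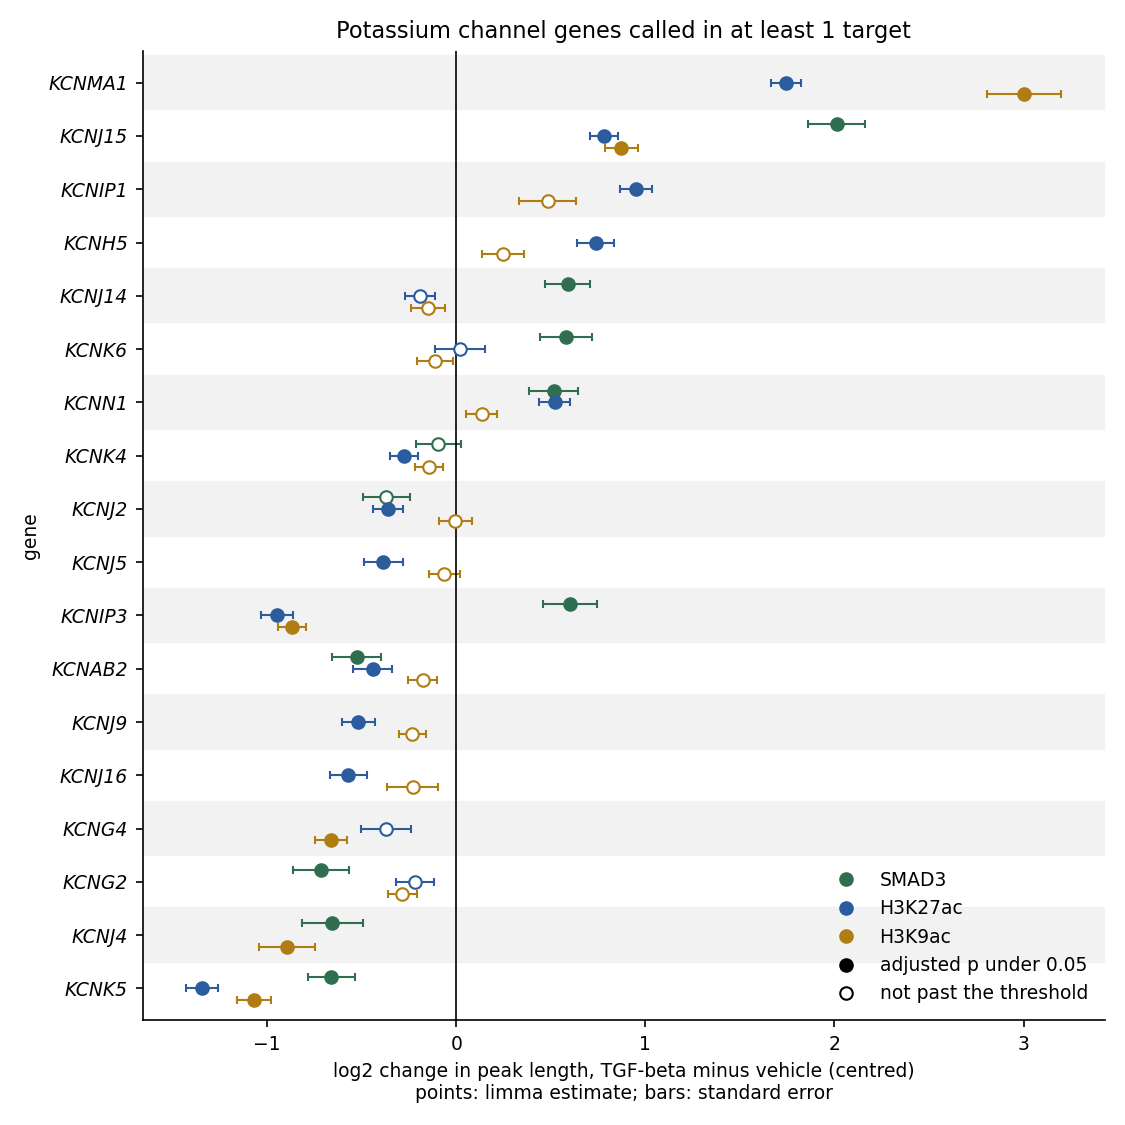
Log2 change in peak length (TGF-beta minus vehicle, centred; x axis) of potassium channel genes called for at least 1 target (y axis), with limma estimates as points and standard errors as bars; filled points passed the threshold, and a missing point was not tested. KCNMA1 and KCNJ15 lie to the right and KCNK5 to the left for every target tested, while KCNIP3 lies right for SMAD3 and left for both marks.

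Among calcium- and sodium-activated channels, KCNMA1 (chromosome 10, 76869602 to 77637808, hg38), the pore subunit of the large-conductance BK channel, had the largest acetylation changes of the members tested. H3K27ac covered 4.68 and 4.54 kb of its window with vehicle and 17.6 and 17.7 kb with TGF-beta (log2 change 1.74 ± 0.079 SE, limma adjusted p = 6.57e-05). H3K9ac covered 0.336 and 0 kb with vehicle and 3.71 and 5.12 kb with TGF-beta (log2 change 3.003 ± 0.195 SE on the scale of length plus 500 bp, limma adjusted p = 0.000227). This change was 4.52 with 100 bp added and 1.62 with 2000 bp, and it was called with both. Both TGF-beta libraries were above both vehicle libraries for each mark. SMAD3 was at 0 and 0 kb with vehicle and at 1.34 and 0.191 kb with TGF-beta, too little on average for testing, and the TGF-beta libraries themselves were far apart.

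The regions inside KCNMA1 showed where this coverage lay. Overlapping peaks of a target were merged into regions over its 4 libraries, and a region called in both libraries of one treatment and neither of the other is termed gained or lost, and one called in all 4 constant. H3K27ac had 12 gained, 0 lost and 9 constant regions. The gained ones lay 45.0 to 525.3 kb inside the gene from the start site and none was at it. H3K9ac had 8 gained and 0 constant regions, and the region at 77637425 to 77638463 covered the start site. The 1 gained SMAD3 region (77291409 to 77291737) lay 346.2 kb inside the gene, on an H3K27ac region called in all 4 libraries and an H3K9ac region gained with TGF-beta. In the 2 TGF-beta libraries 87.9% and 70.6% of SMAD3 peaks had a higher score than this one. When each SMAD3 library was cut to the same number of top-scoring peaks, no SMAD3 peak remained at KCNMA1 in any library.

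**Figure D3:**
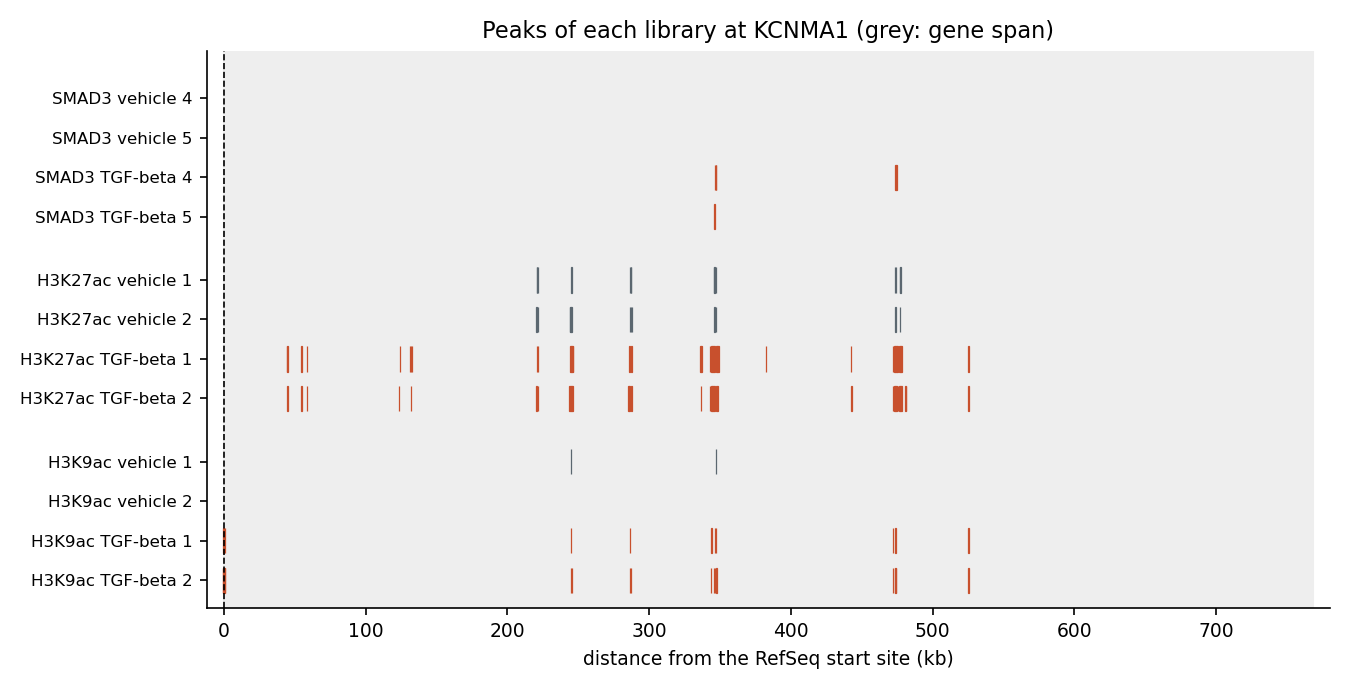
Peaks of each of the 12 libraries (rows; grey for vehicle, orange for TGF-beta) along KCNMA1, as distance in kb from the RefSeq start site (dashed line) into the gene. H3K9ac peaks at the start site are present in both TGF-beta libraries and absent with vehicle, while gained H3K27ac peaks lie within the gene.

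KCNN1 (chromosome 19, 17951290 to 18000085), a small-conductance calcium-activated channel, rose for H3K27ac from 4.65 and 5.44 kb to 8.11 and 7.75 kb (log2 change 0.52, limma adjusted p = 0.00472). Its SMAD3 length rose from 1.40 and 1.78 kb to 2.87 and 3.60 kb (log2 change 0.52, limma adjusted p = 0.0362). The libraries did not overlap for either target. Of the 5 gained H3K27ac regions 3 lay in the flank over the neighbour ARRDC2, as did the gained SMAD3 region, whereas within the gene span alone the H3K27ac change was 1.72. The SMAD3 call did not hold when vehicle replicate 4 (adjusted p = 0.158), vehicle replicate 5 (0.0814) or TGF-beta replicate 5 (0.179) was left out.

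KCNN4 (chromosome 19, 43766533 to 43780973), the intermediate-conductance channel of epithelia, was acetylated throughout but no target passed the test. H3K27ac covered 7.05 and 7.71 kb with vehicle and 10.1 and 8.57 kb with TGF-beta (log2 change 0.23, limma adjusted p = 0.111), and H3K9ac 4.99 and 5.04 kb and 5.55 and 6.14 kb (log2 change 0.29, adjusted p = 0.0631). SMAD3 covered 0.221 and 1.11 kb with vehicle and 1.86 and 1.68 kb with TGF-beta (log2 change 0.75, adjusted p = 0.0951). The lengths before centring did not overlap between the groups for any of the 3 targets. This is a description, as the share of all genes with no overlap was not counted. In its flanks 2 SMAD3 regions were gained. In the gene span alone the H3K9ac change had the other sign (log2 change -0.16, adjusted p = 0.37), and of the H3K9ac regions in the window 1 was gained and 3 were lost. KCNN2, the small-conductance channel described in bile duct secretion, had no peak in any library. KCNT2 had H3K9ac peaks of 0.136 and 0.298 kb in the TGF-beta libraries and none of any target with vehicle, which was too little to test. Of the 8 genes of this class, 4 were tested for H3K27ac (2 rose), 3 for H3K9ac (1 rose) and 2 for SMAD3 (1 rose), and 0 fell.

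Among inward rectifiers, KCNJ15 (chromosome 21, 38229926 to 38307357), the Kir4.2 subunit, rose for all 3 targets. SMAD3 had no peak in either vehicle library and covered 2.28 and 1.78 kb with TGF-beta (limma adjusted p = 0.00014). With vehicle at 0 the fitted log2 change of 2.01 depends on the 500 bp added, and it ran from 0.83 to 3.99 over the other settings tried. H3K27ac rose from 13.8 and 14.1 kb to 25.8 and 26.1 kb (log2 change 0.78 ± 0.075 SE, limma adjusted p = 0.000694), and H3K9ac from 4.38 and 4.19 kb to 6.89 and 8.65 kb (log2 change 0.87 ± 0.087 SE, limma adjusted p = 0.0014). No TGF-beta library overlapped a vehicle library for any target. All 5 gained SMAD3 regions lay on H3K27ac regions called in all 4 libraries, 13.6 to 31.1 kb before the start site in the promoter table (38272508) and inside the annotated gene span. Of these 5, 2 lay on a gained H3K9ac region and 3 on constant ones. When each SMAD3 library was cut to the same number of top-scoring peaks, 0 and 0 kb with vehicle and 0.828 and 0.404 kb with TGF-beta remained, which fell short of the mean of 500 bp needed for the test.

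H3K27ac fell at KCNJ16, the Kir5.1 subunit that joins other Kir subunits (4.63 and 5.58 kb to 3.79 and 3.22 kb, log2 change -0.57, limma adjusted p = 0.00704). It also fell at KCNJ9 (0.880 and 1.09 kb to 0.568 and 0.633 kb, log2 change -0.52) and KCNJ5 (1.57 and 1.42 kb to 1.03 and 1.22 kb, log2 change -0.39), both subunits of G-protein-gated channels, and at KCNJ2, a classical strong rectifier (1.07 and 1.24 kb to 0.922 and 0.821 kb, log2 change -0.36). The vehicle and TGF-beta libraries were apart in each of these 4 genes. In the gene span alone KCNJ16 did not pass (limma adjusted p = 0.0509), and KCNJ9 and KCNJ2 had too little length to be tested. The window of KCNJ9 is shared with IGSF8. The KCNJ5 call did not hold when vehicle replicate 1 (adjusted p = 0.12) or TGF-beta replicate 1 (0.16) was left out, nor the KCNJ2 call when vehicle replicate 2 (0.055) or TGF-beta replicate 2 (0.0936) was. Without centring neither passed (adjusted p = 0.0655 and 0.0811).

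KCNJ4, the Kir2.3 subunit, fell for H3K9ac from 3.30 and 2.43 kb to 0.890 and 1.53 kb (log2 change -0.90, limma adjusted p = 0.011). Its SMAD3 length, 0.476 and 0.804 kb with vehicle and 0.265 and 0.545 kb with TGF-beta, also passed the test (log2 change -0.66, adjusted p = 0.0308), but the libraries overlapped, and the call did not hold when vehicle replicate 4 (adjusted p = 0.0809) or TGF-beta replicate 4 (0.138) was left out, or without centring (0.316). KCNJ14, the Kir2.4 subunit, rose for SMAD3 from 0.812 and 1.08 kb to 2.17 and 2.24 kb (log2 change 0.59, limma adjusted p = 0.0127), a call lost without vehicle replicate 4 (adjusted p = 0.0755). Its H3K27ac values, 3.83 and 3.87 kb against 3.77 and 3.34 kb, did not pass (adjusted p = 0.132), and its window is shared with GRWD1 and CYTH2. KCNJ6, which led the resting order, stayed at 20.4 and 19.4 kb of H3K27ac with TGF-beta (log2 change -0.12, adjusted p = 0.303). Of the 16 inward rectifiers, 8 were tested for H3K27ac (1 rose, 4 fell), 10 for H3K9ac (1 and 1) and 5 for SMAD3 (2 and 1).

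**Figure D4:**
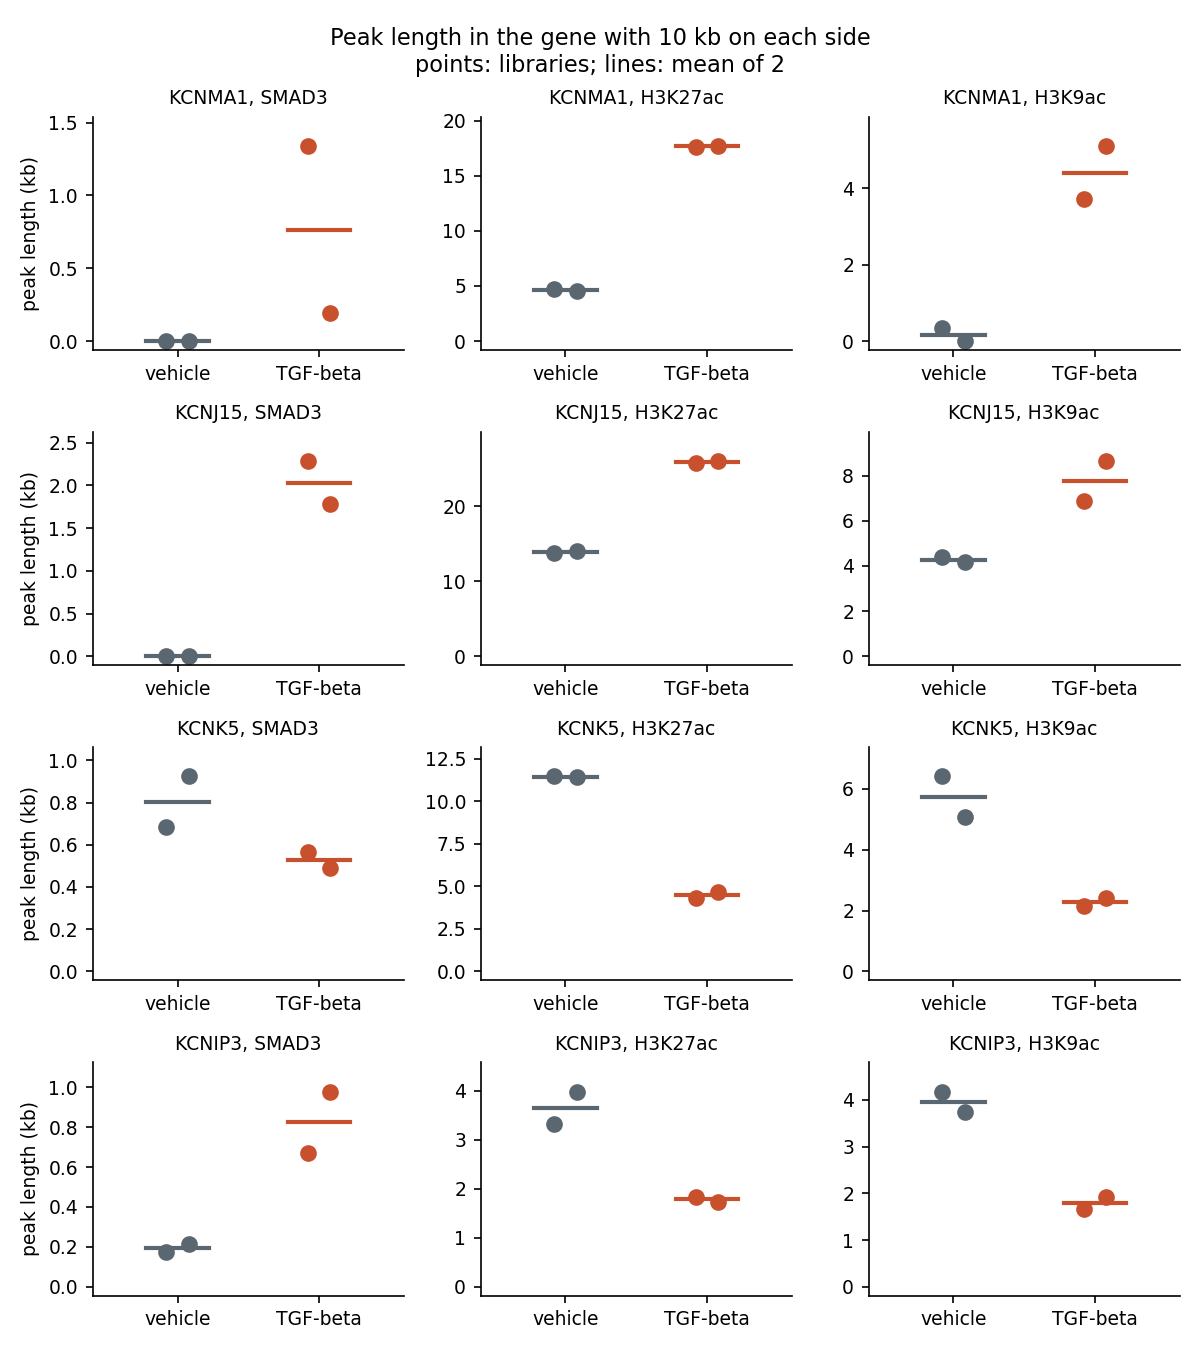
Peak length (y axis, kb) in the windows of KCNMA1, KCNJ15, KCNK5 and KCNIP3 (rows) for SMAD3, H3K27ac and H3K9ac (columns), with a point for each library and a line at the mean of 2. In every panel both TGF-beta points lie on the same side of both vehicle points, and KCNIP3 is higher for SMAD3 and lower for the marks.

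Among tandem-pore-domain channels, KCNK5 (chromosome 6, 39188971 to 39229475), the alkaline-activated TASK-2 channel of transporting epithelia, fell for all 3 targets and had the largest H3K27ac decrease among the members. H3K27ac covered 11.5 and 11.4 kb with vehicle and 4.33 and 4.67 kb with TGF-beta (log2 change -1.34 ± 0.084 SE, limma adjusted p = 0.000169). H3K9ac fell from 6.42 and 5.07 kb to 2.16 and 2.40 kb (log2 change -1.07 ± 0.089 SE, limma adjusted p = 0.000699), and SMAD3 from 0.685 and 0.924 kb to 0.568 and 0.488 kb (log2 change -0.66, limma adjusted p = 0.00927). All vehicle libraries were above all TGF-beta libraries. The SMAD3 call did not hold without centring (adjusted p = 0.167), with equal peak numbers per library (0.0563) or with scores of at least 5 (0.0651), while both acetylation calls did. The 4 lost H3K27ac regions and 4 lost H3K9ac regions lay 13.03 to 44.26 kb from the start site, and the lost SMAD3 region (39204090 to 39204429) 25.2 kb from it, on regions of both marks called in all 4 libraries. The start site kept a SMAD3 region (39228990 to 39229573) and both marks in all libraries. No other protein-coding gene lay in this window.

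**Figure D5:**
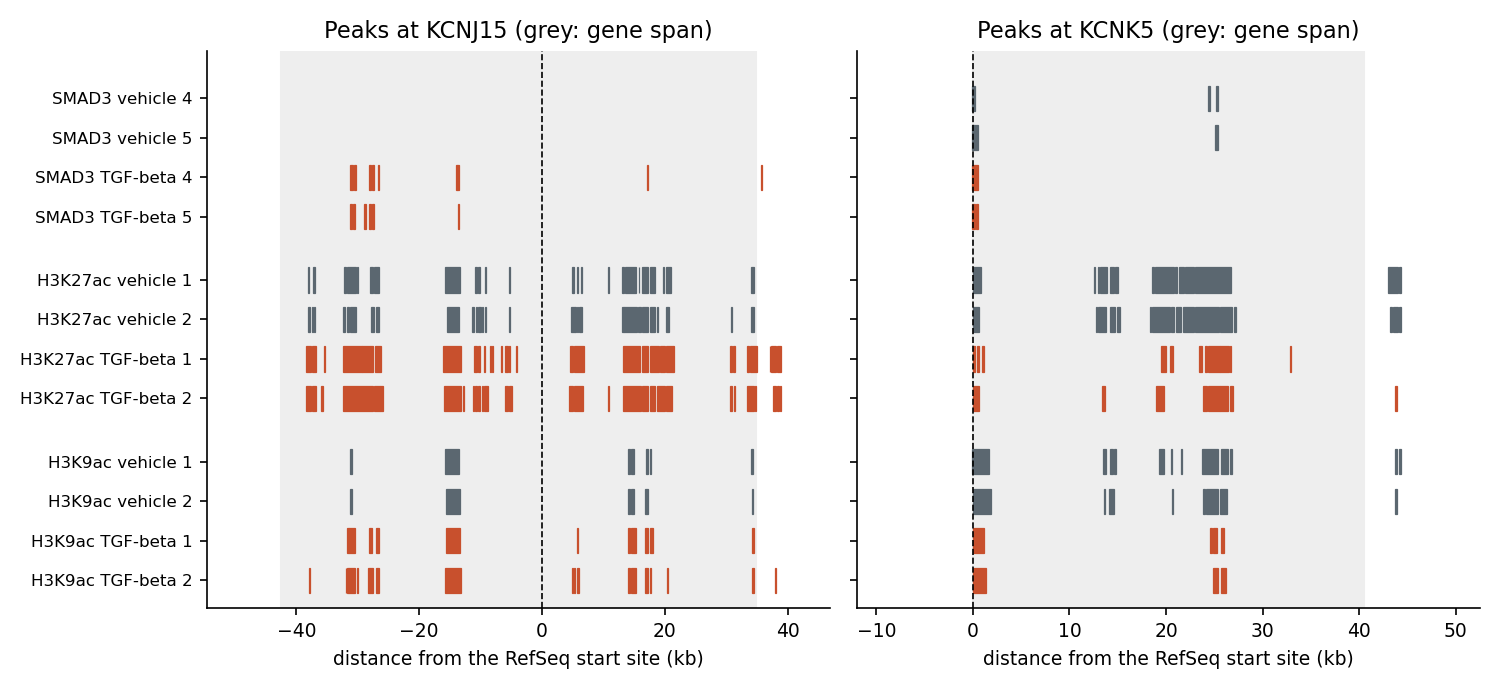
Peaks of each of the 12 libraries (rows; grey for vehicle, orange for TGF-beta) at KCNJ15 (left) and KCNK5 (right), as distance in kb from the RefSeq start site (dashed line), with the gene span shaded. SMAD3 peaks at KCNJ15 are found with TGF-beta and not with vehicle, and at KCNK5 acetylation inside the gene was reduced while the start site kept its peaks.

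KCNK6, the TWIK-2 channel, rose for SMAD3 from 1.74 and 2.002 kb to 4.34 and 3.54 kb (log2 change 0.58, limma adjusted p = 0.0269), with no overlap between the groups. Both gained regions lay in the flank over the neighbour YIF1B, and the call did not hold when vehicle replicate 4 (adjusted p = 0.11), vehicle replicate 5 (0.0896) or TGF-beta replicate 4 (0.156) was left out. Neither mark passed at KCNK6: H3K27ac was 2.37 and 3.48 kb and 3.20 and 3.09 kb (adjusted p = 0.927), and H3K9ac 5.15 and 3.96 kb and 3.62 and 4.10 kb (adjusted p = 0.531). KCNK4 fell for H3K27ac from 6.45 and 6.52 kb to 5.69 and 5.58 kb (log2 change -0.28, limma adjusted p = 0.0355), but the call did not hold when any 1 library was left out, be it vehicle replicate 1 (adjusted p = 0.107), vehicle replicate 2 (0.06), TGF-beta replicate 1 (0.14) or TGF-beta replicate 2 (0.137), or without centring (0.149). KCNK1, the TWIK-1 channel, held H3K27ac at 0.823 and 0.813 kb with vehicle and 0.950 and 0.893 kb with TGF-beta (log2 change 0.02, adjusted p = 0.867). KCNK7 had a SMAD3 peak within 500 bp of its start site in both TGF-beta libraries and neither vehicle library, but no gained region. Its window, shared with EHBP1L1 and MAP3K11, held 0 and 0.210 kb with vehicle and 0.629 and 0.784 kb with TGF-beta, below the minimum for a test. Of the 15 genes of this class, 4 were tested for H3K27ac (2 fell), 7 for H3K9ac (1 fell) and 4 for SMAD3 (1 rose, 1 fell).

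Among voltage-gated pore subunits, KCNH5 (Kv10.2) rose for H3K27ac from 2.61 and 2.28 kb to 4.67 and 4.74 kb (log2 change 0.74, limma adjusted p = 0.00243), and its H3K9ac did not pass (log2 change 0.25, adjusted p = 0.237). The silent subunit KCNG4 fell for H3K9ac from 0.792 and 0.808 kb to 0.261 and 0.281 kb (log2 change -0.66, limma adjusted p = 0.00331). Without vehicle replicate 1 or 2 the mean length of KCNG4 was under the minimum, so no test was made there. KCNG2 fell for SMAD3 from 0.794 and 1.44 kb to 0.737 and 0.676 kb (log2 change -0.71, limma adjusted p = 0.0158), and this was lost without vehicle replicate 5 (adjusted p = 0.0619) and without centring (adjusted p = 0.241). In the KCNG2 gene span alone the SMAD3 change was -0.28 and did not pass (limma adjusted p = 0.267), and the window is shared with SLC66A2. KCNQ1 did not pass for any target: H3K27ac was 10.7 and 10.997 kb with vehicle and 10.951 and 9.40 kb with TGF-beta (log2 change -0.18, adjusted p = 0.177), and H3K9ac 9.71 and 8.52 kb and 5.81 and 8.18 kb (log2 change -0.28, adjusted p = 0.192). KCNH2, the cardiac HERG channel, had H3K9ac at 0.238 and 0.621 kb with vehicle and none with TGF-beta, which was too little to test. Of the 39 genes of this class, 12 were tested for H3K27ac (1 rose, 2 fell), 16 for H3K9ac (3 fell) and 6 for SMAD3 (1 fell).

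Among accessory subunits, KCNIP3 (chromosome 2, 95297347 to 95386077), a calcium-binding partner of Kv4 channels that is also described as a DNA-binding repressor, differed in direction between SMAD3 and the marks. SMAD3 covered 0.176 and 0.213 kb with vehicle and 0.671 and 0.979 kb with TGF-beta (log2 change 0.60, limma adjusted p = 0.0257). H3K27ac fell from 3.32 and 3.98 kb to 1.83 and 1.73 kb (log2 change -0.95 ± 0.084 SE, limma adjusted p = 0.000552), and H3K9ac from 4.18 and 3.74 kb to 1.66 and 1.93 kb (log2 change -0.87 ± 0.073 SE, limma adjusted p = 0.00071). The groups did not overlap for any target. A gained SMAD3 region (95346587 to 95346864) covered the start site, beside a SMAD3 region present in all libraries. H3K9ac was called there in all 4 libraries. In the 2 TGF-beta libraries 96.5% and 68.1% of SMAD3 peaks had a higher score than the gained region. The SMAD3 call was lost with 2000 bp added (limma adjusted p = 0.16) and with 50 kb flanks (0.475). It was not tested with equal peak numbers or with scores of at least 5, for too little length. The 3 lost H3K27ac regions lay 39.94 to 41.55 kb and the 4 lost H3K9ac regions 1.22 to 31.16 kb before the start site, within the annotated gene span. The acetylation calls held without any 1 library, whereas the SMAD3 call was lost without vehicle replicate 4 or 5 (adjusted p = 0.0821 and 0.0991) and was not tested without TGF-beta replicate 4 or 5.

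KCNIP1, another Kv4 partner, rose for H3K27ac from 3.62 and 4.34 kb to 8.88 and 8.48 kb (log2 change 0.95 ± 0.084 SE, limma adjusted p = 0.000547). Its H3K9ac, 2.84 and 1.89 kb with vehicle and 2.64 and 3.88 kb with TGF-beta, overlapped between the groups and did not pass (log2 change 0.48, adjusted p = 0.102). In the gene span alone H3K9ac did pass (log2 change 0.98, limma adjusted p = 0.00477), and 3 H3K9ac regions were gained and 0 lost. The BK subunit gene KCNMB1 lies inside this window, with no peak in its own. KCNAB2, a cytoplasmic beta subunit of KCNA channels, fell for H3K27ac from 3.67 and 3.29 kb to 2.83 and 2.41 kb (log2 change -0.44, limma adjusted p = 0.021), which did not hold when vehicle replicate 1 (adjusted p = 0.0701) or TGF-beta replicate 2 (0.102) was left out. Its SMAD3 fell from 1.48 and 1.45 kb to 1.18 and 1.23 kb (log2 change -0.53, limma adjusted p = 0.0314), and did not pass when vehicle replicate 4 (adjusted p = 0.159), TGF-beta replicate 4 (0.0695) or TGF-beta replicate 5 (0.0504) was left out, or without centring (0.269). KCNE3, which joins KCNQ1 in epithelia, had no H3K27ac, and its H3K9ac of 0.781 and 0.557 kb with vehicle and 0.540 and 0.514 kb with TGF-beta did not pass (log2 change -0.09, adjusted p = 0.636). Of the 17 accessory genes, 7 were tested for H3K27ac (1 rose, 2 fell), 8 for H3K9ac (1 fell) and 6 for SMAD3 (1 rose, 1 fell).

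Counted as regions, SMAD3 had 149 regions in the members' windows, of which 23 were gained, beside 12.7% of regions near any protein-coding gene, and 3 lost, beside 0.632%. H3K27ac had 317, of which 31 were gained, beside 10.8%, and 25 lost, beside 4.37%. H3K9ac had 280, of which 22 were gained, beside 4.27%, and 27 lost, beside 5.81%. Among the members these shares were 15.4% and 2.01%, 9.78% and 7.89%, and 7.86% and 9.64%, gained and lost. KCNMA1 held 12 of the 31 gained H3K27ac regions and 8 of the 22 gained H3K9ac regions, each set lying in 9 members, while the 23 gained SMAD3 regions lay in 15 members, with at most 5 in 1 of them (KCNJ15). Of the 23 gained SMAD3 regions, 11 lay on an H3K27ac region called in all 4 libraries, 0 on a gained H3K27ac region and 11 on none. A constant H3K9ac region was overlapped by 12 and a gained one by 4. These overlaps were not counted for gained SMAD3 regions near all protein-coding genes, so they show no trait of the family. Lost H3K27ac regions also lay in 15 members, with at most 4 in 1 of them (KCNK5 and KCNJ6). With every SMAD3 library cut to equal peak numbers, 7 regions were gained and 4 lost (7.37% and 4.21%). The shares near any protein-coding gene were then 5.8% and 2.1%.

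Whether the change differed between H3K9ac and H3K27ac was tested with an interaction term in the 32 members that passed the filter for both. It passed at KCNMA1, where H3K9ac changed by 1.26 ± 0.245 SE (log2) more than H3K27ac (limma adjusted p = 0.0136), so 1 of 32 was higher, beside 1.93% of all genes tested, and 0 were lower, beside 5.62%. At an unadjusted p under 0.05, 8 of the 32 differed, beside 21.4% of all genes tested. With H3K9ac at 0.336 and 0 kb in the vehicle libraries, the KCNMA1 difference depends on the bases added: it was 2.70 with 100 bp (adjusted p = 0.07) and 0.11 with 2000 bp (adjusted p = 0.589). Without the H3K9ac TGF-beta replicate 2 library, the one from the other lane, it was 1.12 (adjusted p = 0.0526), and in the gene span alone 0.998 (adjusted p = 0.0564). The marks had the same sign of change in 29 of the 32 members, beside 66.1% of all genes tested, which is given as a description. For KCNN1, KCNH5 and KCNIP1, which were called higher for H3K27ac and not for H3K9ac, the difference was -0.39, -0.49 and -0.47 and did not pass (adjusted p = 0.0735, 0.106 and 0.206), so a difference between the marks is not shown for any of them.

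Genes that work with these channels were taken as a list of 26 partner and potassium transport genes, which holds BK gamma subunits, DPP and ABCC partners, HCN channels, sodium pumps, cation-chloride cotransporters and the chloride channels CFTR and ANO1. For SMAD3, 12 were tested, 0 fell, beside 1.68% of all genes tested, and 1 rose, beside 11.2%, which was HCN2, a hyperpolarisation-activated cation channel (0 and 0.376 kb to 1.74 and 1.63 kb, limma adjusted p = 0.00199). For H3K27ac, 12 were tested, of which 2 rose, HCN2 and the sodium pump subunit ATP1B1, beside 14.8%, and 2 fell, the potassium-chloride cotransporters SLC12A4 and SLC12A7, beside 11.7%. HCN2 had 0.213 and 0.199 kb with vehicle and 2.86 and 2.499 kb with TGF-beta (log2 change 2.08, limma adjusted p = 4.87e-05), in a window shared with BSG and POLRMT. The HCN2 gene span alone had too little peak length to be tested for any target. SLC12A7 fell from 12.8 and 15.8 kb to 9.24 and 9.31 kb (log2 change -0.68, limma adjusted p = 0.00303).

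For H3K9ac, 15 partners were tested, 0 rose, beside 4.25%, and 3 fell, beside 5.22%, among them LRRC26 and SLC12A7. LRRC26, the gamma subunit that lets BK channels open at rest in epithelia, fell from 2.81 and 2.44 kb to 0.866 and 0.951 kb (log2 change -1.06, limma adjusted p = 0.000311), in a window shared with GRIN1, TMEM210 and ANAPC2, while KCNMA1 itself rose. In the LRRC26 gene span alone the change was -0.63 (adjusted p = 0.00358). SLC12A7 fell from 13.5 and 11.9 kb to 5.82 and 7.41 kb (log2 change -0.81, limma adjusted p = 0.00215). CFTR had no peak of any target in any library, and ANO1 had H3K27ac of 0.276 and 0.169 kb with TGF-beta and none with vehicle.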

How the data were processed

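SMAD3, H3K27ac and H3K9ac were measured by ChIP-seq in 12 libraries, and 4 input samples were not used here. Chromatin was crosslinked with 1% formaldehyde for 10 min and read as paired ends of 51 bases, per the labels' protocols. BWA, Picard, MACS2 and bedtools were run with hg38, per the submitters' processing notes, with versions, cutoffs and controls not given in the sources used here. Each library has 1 peak list, deposited by the authors, whose score is −log10 of a p or q value (which of them is not stated); scores served only to rank or filter peaks within a library. Files hold no read counts, so depth is unknown, peak length moves with how much was called, and no counting error can be given. All SMAD3 libraries and TGF-beta replicate 2 of both marks were on lane 8 and the other libraries of the marks on lane 7, per the file headers.

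From these files, log2 of peak length plus 500 bp was computed per gene window, centred per library on the median of genes that all 4 libraries of a target covered, and tested with limma 3.58.1 (R 4.3.3) over all protein-coding genes averaging at least 500 bp. For 1 gene and 2 libraries against 2, exact permutation gives no p below 0.333. Regions were merged over the 4 libraries at an overlap of at least 1 bp. Whether the libraries of the 2 treatments overlapped was judged on lengths before centring. Fits were tested on simulated data. Replicate numbers are shared between treatments, but deviations of same-numbered libraries correlated at -0.0689, -0.0163 and -0.136 for SMAD3, H3K27ac and H3K9ac, so no block was used. Named members were those called with no overlap between groups (up to 10 per direction and target), the 5 with the longest vehicle length per target, and 10 fixed by name (KCNN4, KCNN2, KCNMA1, KCNQ1, KCNE3, KCNK1, KCNK5, KCNK6, KCNJ15, KCNH2), partners being named when called; KCNJ4 for SMAD3, KCNJ10, KCNT2, KCNK7, CFTR, ANO1 and members named for holding no peak were named after their values were seen. Some genes that are counted here are not reported by name. The members and lists were chosen with earlier results of these data known. Python 3.11.15 (numpy 2.4.6, pandas 2.3.3, matplotlib 3.10.9) made tables and figures.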

Additional observations from a re-analysis of the deposited data

Results flagged for a closer look

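KCNMA1 was flagged because its change with TGF-beta differed between the marks in the main test of that difference. The H3K9ac change was 1.26 (log2) above the H3K27ac change. This difference depends on the setting: it did not pass with 100 bp or 2000 bp added, or in the gene span alone. The H3K9ac change starts from 0.336 and 0 kb in the vehicle libraries. In kb the order was the reverse, with a mean rise of 13.0 kb for H3K27ac and 4.25 kb for H3K9ac. Within each mark both TGF-beta libraries were above both vehicle libraries.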

How the results depend on the processing

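The calls of KCNMA1, KCNJ15, KCNK5 and KCNIP3 for both marks held under every alternative run, whereas 7 of the 9 SMAD3 calls, all but KCNJ15 and KCNK5, were lost in at least 1 fit that left out a library. SMAD3 members higher (5) became 3 with 100 bp added in place of 500, 9 with no filter on low lengths, 2 in the gene span alone, 2 with 2.5 kb flanks, 11 with 50 kb flanks and 1 with equal peak numbers. SMAD3 members lower (4) became 0 without centring and 1 in the gene span alone, with 2.5 kb flanks and with equal peak numbers. With 50 kb flanks, 12 members were higher and 17 lower for H3K27ac (5 and 10). The share of all genes called was not counted for these settings or for fits with a library left out. The number of members tested also varies with the window and the filter, so these counts of called members are a description. H3K9ac members higher (2) became 4 with 2000 bp added and 5 with no filter. The marks' difference was higher in 0 members with 100 bp added or in the gene span alone, 2 with 2000 bp added or no filter and 3 with 50 kb flanks, and lower in 3 with 2000 bp added or 50 kb flanks and in 1 with no filter, without centring or with limma's trend and robust options. Gained SMAD3 regions (23) became 7 with equal peak numbers, which was 7.37% beside 5.8% of regions near any protein-coding gene. In the gene span alone they became 14 (18.9%, beside 11.8%). Gained H3K27ac regions (31) became 52 when most of a region had to be covered (16.4%, beside 13.4%). Among the called changes of the members named, those that changed sign were KCNJ4 for SMAD3 (0.28) and KCNG4 for H3K9ac (0.11) with 50 kb flanks, which take in more neighbours, and KCNN1 for SMAD3 (-0.16) with 2.5 kb flanks. Where no cause is named, the cause was not tested.

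Leaving out each library in turn gave 1 to 4 members higher and 2 to 3 lower for SMAD3, 5 to 6 and 7 to 9 for H3K27ac, 2 to 4 and 5 to 7 for H3K9ac, and 0 to 1 and 0 for the difference between marks; a group left with 1 library is assumed to vary like the other. With the replicate number as a block, H3K9ac called 4 members higher in place of 2, and the counts for SMAD3 (5 and 4), H3K27ac (5 and 9) and the marks' difference (1 and 0) stayed within 1.5 times. With the numbers crossed in H3K9ac, an alternative added after seeing the data, 3 members were higher and 6 lower. Depth is unknown, so a missing peak does not show that a mark was absent.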

Other observations

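Some members had too little peak length of a target for a test, yet that target differed by treatment in every library. They were chosen after their values were seen, and the share of all genes with this pattern was not counted. KCNJ12, a strong inward rectifier, had no peak with vehicle, H3K27ac of 1.05 and 0.831 kb and H3K9ac of 0.171 and 0.178 kb with TGF-beta. KCNJ11, the pore of ATP-sensitive channels, had H3K27ac of 0.452 and 0.350 kb with vehicle and none with TGF-beta. Its H3K9ac was tested and did not pass (log2 change -0.14, limma adjusted p = 0.318), and its window is shared with NCR3LG1 and ABCC8. KCNAB1, a beta subunit of KCNA channels, had SMAD3 peaks of 0.359 and 0.408 kb with TGF-beta and none with vehicle, with no peak of either mark. None of these SMAD3 peaks remained with equal peak numbers per library, and the KCNAB1 window is shared with SSR3.

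Potassium channel genes were longer than most, with a median span of 40.5 kb against 24.2 kb over all protein-coding genes, yet fewer of their windows held a peak of any treatment: 48.4% against 72.5% for SMAD3, 51.6% against 76.1% for H3K27ac and 61.1% against 79.5% for H3K9ac.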
